A study of Mus musculus with 12 samples.

Results

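The 9 genes described here carry the Hedgehog signal: the ligand Shh, the receptors and receptor partners Ptch1, Smo, Boc and Hhip, the cytoplasmic inhibitor Sufu and the transcription factors Gli1, Gli2 and Gli3. They were chosen by name for their place in the pathway and make up 9 of the 39017 genes in the deposited table. All 9 passed the filter on low counts.

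RNA was measured by mRNA sequencing of whole adrenal glands trimmed of fat from 12 female mice of 10 to 11 weeks on a mixed sv129-C57Bl/6 background. The 6 control mice (Ctrl) carry ASCre/+, in which Cre recombinase is made from the locus of Cyp11b2, the aldosterone synthase gene. The 6 βCat-GOF mice carry ASCre/+ together with Ctnnb1fl(ex3)/+, an allele from which Cre removes exon 3 of β-catenin so that the protein escapes degradation. By these recorded genotypes both groups carry Cre, which acts in cells of the zona glomerulosa (zG), the outer layer of the cortex. The library holds the RNA of the whole gland. Sample titles and the paper's text name the controls wild type, and whether they carry Cre was not tested. Counts per gene do not show whether exon 3 is present, so the recombination is not checked here. Libraries held 14090378 to 25625494 counts in Ctrl and 13484675 to 24951480 in βCat-GOF. Genes that define the gland were abundant in every mouse, with at least 144025 normalized counts of Cyp11b1, 236688 of Star and 5975 of Th.

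Hedgehog ligands bind Ptch1, which otherwise holds the membrane protein Smo inactive, and active Smo lets the Gli factors turn on target genes. Gli1, Ptch1 and Hhip are themselves classic targets, so their RNA is commonly read as a sign of a responding cell, and Ptch1 and Hhip in turn restrain the signal. In the adrenal gland Shh is made by cells of the outer cortex that lie beneath the capsule, and the capsule cells that surround the gland answer with Gli1 and Ptch1.

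The comparison asks whether the ligand of the cortex and the responding genes of the capsule move together when β-catenin is stabilized in the zG. Promoter sequence is shown for Ptch1 and Hhip, the pair of responding genes whose level relative to Shh differed between genotypes. Each run holds the 250 bases before the RefSeq start (GRCm38.p6), 5′ to 3′ on the gene's strand, with CpG dinucleotides in capitals. The Ptch1 run is chr13:63565736-63565985 and the Hhip run is chr8:80058009-80058258, both on the minus strand. The Ptch1 run lies inside the annotated span of the gene (chr13:63508328-63573598), so the start used is not its outermost one.
Ptch1: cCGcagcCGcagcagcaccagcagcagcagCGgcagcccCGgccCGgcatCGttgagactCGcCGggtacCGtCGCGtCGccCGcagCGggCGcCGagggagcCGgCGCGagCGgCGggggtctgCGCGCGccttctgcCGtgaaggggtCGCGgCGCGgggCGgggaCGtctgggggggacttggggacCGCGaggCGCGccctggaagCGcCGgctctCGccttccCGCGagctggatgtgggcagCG
Hhip: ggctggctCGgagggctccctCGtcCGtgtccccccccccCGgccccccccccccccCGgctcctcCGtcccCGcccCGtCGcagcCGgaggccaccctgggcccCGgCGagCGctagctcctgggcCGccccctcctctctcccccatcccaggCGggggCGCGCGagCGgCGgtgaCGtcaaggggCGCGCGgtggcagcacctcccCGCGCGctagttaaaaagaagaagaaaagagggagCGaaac
The Ptch1 run holds 41 CpG dinucleotides and the Hhip run 28, against a median of 6 in the same window of 32851 promoters. GC content was 78.4% for Ptch1 and 76% for Hhip, against a median of 52.4%. RefSeq promoters were matched for 6 of the 9 genes (Ptch1, Smo, Gli2, Gli3, Hhip and Sufu). The runs of Gli3, Gli2, Smo and Sufu held 34, 22, 15 and 8 CpG dinucleotides. A high CpG count was thus not particular to Ptch1 and Hhip. In the 300-base windows that add the first 50 transcribed bases, none of the 6 held GACCACCCA (the GLI consensus), ATCAAAG (a TCF/LEF motif) or CAAGGTCA (an Nr5a1 motif) on either strand. Of all promoters, 0.253% held the first, 3.73% the second and 1.56% the third.

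Values below are normalized counts, that is counts divided by a size factor for the library, and fold changes are log2 values of βCat-GOF over Ctrl. A gene was called when its adjusted p was under 0.05, its fold above 1.4 and its mean normalized count above 100. By edgeR's quasi-likelihood test, 1.48% of the 14953 genes tested were called higher in βCat-GOF and 0.869% lower. None of the 9 Hedgehog genes was called in either direction. At an unadjusted p under 0.05 the test marked 4 of the 9 (Shh, Gli1, Gli3 and Boc, all with higher values), against 20.4% of all genes in either direction. DESeq2 called 2 of the 9 higher (Shh and Gli3), against 2.17% of its 16658 genes. For none of the 9 were the groups free of overlap, which held for 2.78% of all genes tested. The median log2 fold change was 0.24 over the 9 genes and 0.00 over all genes. Gli2, with a mean of 27.6, lies below the count that a call requires. The labels do not state litters, and p-values measure the spread between these mice. Mouse labels of all Ctrl mice begin with one number and those of βCat-GOF mice with others. What that number marks is not stated, and it cannot be told apart from genotype.

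**Figure D1:**
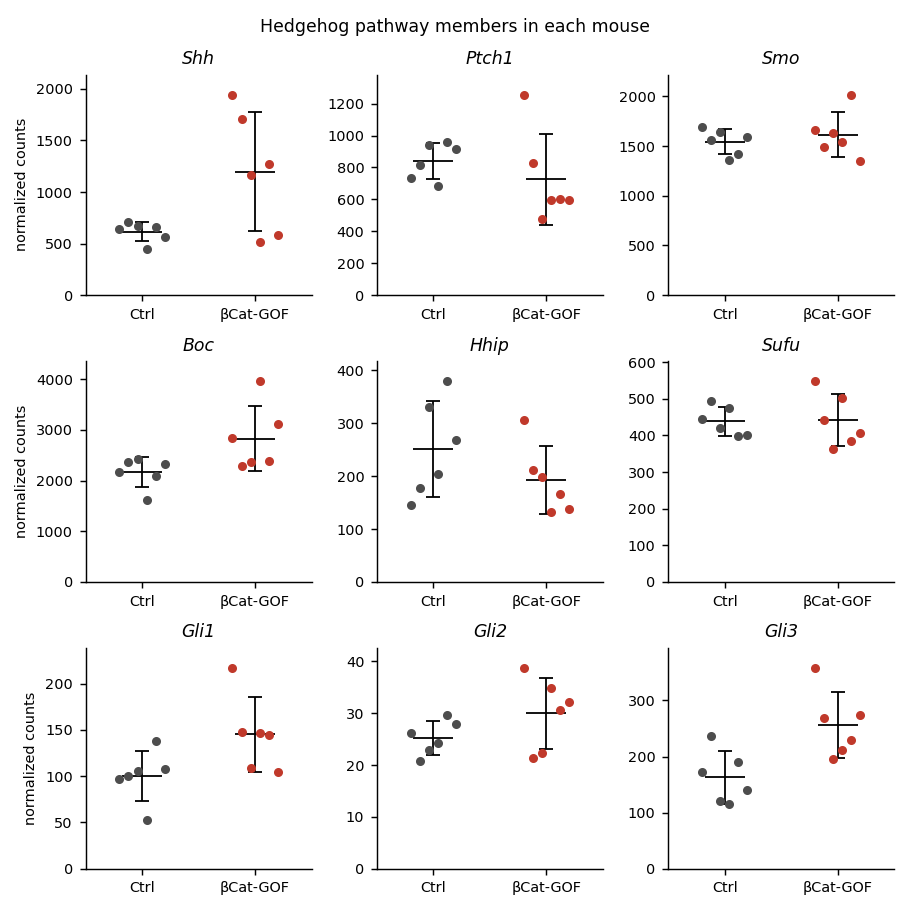
Normalized counts of the 9 Hedgehog genes (vertical axes, from 0) in 6 Ctrl and 6 βCat-GOF mice; each point is 1 mouse, the wide line is the mean and the bar its SD. Shh spreads from 514 to 1946 in βCat-GOF against 447 to 709 in Ctrl, while Smo and Sufu lie in like ranges in both groups.

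Shh, the ligand (chr5:28456815-28467256, minus strand, mm10), had 447, 652 and 709 normalized counts as the lowest, median and highest Ctrl mouse. The βCat-GOF mice had 1946, 1706, 1161, 514, 1272 and 586, in the order of replicates 1 to 6. Thus 4 of the 6 mice lay above every Ctrl mouse, and the other two lay inside the Ctrl range. The mean was 616 ± 95.3 (SD, n = 6) in Ctrl and 1197 ± 577 (SD, n = 6) in βCat-GOF. The log2 fold change was 0.96 with a standard error of 0.285 (edgeR's quasi-likelihood test, Benjamini-Hochberg adjusted p = 0.0821), which misses the threshold. DESeq2 gave 0.96 with an adjusted p of 0.0141, and over all alternatives that kept every mouse or left out labelled subsets the adjusted p ran from 0.0141 to 0.169. Leaving out βCat-GOF mouse 4 (log2 fold change 1.11, adjusted p = 0.0291) or mouse 6 (1.09, adjusted p = 0.046) also gave a call by edgeR. The spread between mice, as a coefficient of variation, was 15.5% in Ctrl and 48.2% in βCat-GOF, the widest of the 9 genes in the latter group. In bulk tissue, more cells that make Shh and more Shh RNA per cell cannot be told apart.

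Exons of Shh overlap those of a pair of genes on the opposite strand, 9530036O11Rik and Gm26894, over 28.4% of their length, and the strand setting of the counting was not given in the sources used here. Both neighbours were low, with at most 20.9 and 38.6 normalized counts in any mouse. Gm26894 had a log2 fold change of -0.11 (edgeR, adjusted p = 0.884).

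The other ligands were scarce. Dhh, which signals in testis and nerve, had 35.0 to 61.0 normalized counts in Ctrl and 20.7 to 49.0 in βCat-GOF (log2 fold change -0.31, edgeR adjusted p = 0.517). Ihh, the ligand of cartilage, had 0 to 2.29 normalized counts in Ctrl and 0 to 4.74 in βCat-GOF and did not pass the filter. Scube1, a secreted protein of a family that helps to release lipid-bearing Hedgehog from cells, fell. Its lowest, median and highest Ctrl mice had 598, 777 and 818 normalized counts, and the βCat-GOF mice 196, 364 and 508. All 6 βCat-GOF mice lay below every Ctrl mouse. Its log2 fold change was -1.06 with a standard error of 0.182 (edgeR, adjusted p = 0.00577), and DESeq2 called it lower too.

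Ptch1, the receptor and a target (chr13:63508328-63573598, minus strand),, had its higher values in Ctrl on average. Ctrl mice had 684, 865 and 959 normalized counts as lowest, median and highest. In replicate order the βCat-GOF mice had 1257, 831, 478, 595, 599 and 597. Here 4 of the 6 lay below every Ctrl mouse and mouse 1 lay above all of them. The log2 fold change was -0.21 with a standard error of 0.207 (edgeR, adjusted p = 0.607), which did not pass the test. It was -0.44 without βCat-GOF mouse 1 (edgeR, adjusted p = 0.0775), -0.12 without mouse 3 (adjusted p = 0.786) and -0.45 without the 3 mice whose label extends another (adjusted p = 0.13).

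Hhip, the decoy receptor that binds ligand outside the cell (chr8:79965851-80058006, minus strand), had 146, 236 and 379 normalized counts in Ctrl. In βCat-GOF it had 131, 182 and 306. Both groups overlapped, with 2 of the 6 βCat-GOF mice below every Ctrl mouse. Its log2 fold change was -0.38 with a standard error of 0.261 (edgeR, adjusted p = 0.434). It was -0.23 without Ctrl mouse 5 (adjusted p = 0.68) and -0.61 without the 3 mice whose label extends another (adjusted p = 0.159).

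Boc, a co-receptor that presents ligand to Ptch1 (chr16:44485049-44558897, minus strand), had 1614, 2246 and 2427 normalized counts in Ctrl. The βCat-GOF mice ran from 2285 through 2612 to 3954. All 6 lay above the Ctrl median and 3 above every Ctrl mouse. The log2 fold change of 0.37 with a standard error of 0.142 did not pass the test (edgeR, adjusted p = 0.161).

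Smo, the signal transducer released by Ptch1 (chr6:29735503-29761365, plus strand), had 1360, 1577 and 1689 normalized counts in Ctrl and 1353, 1581 and 2018 in βCat-GOF. Sufu, which holds Gli proteins in the cytoplasm (chr19:46396896-46488804, plus strand), had 398, 432 and 493 in Ctrl and 363, 424 and 547 in βCat-GOF. These were the steadiest of the 9 genes: the coefficient of variation in Ctrl was 8.22% for Smo and 8.97% for Sufu. Their log2 fold changes were 0.06 with a standard error of 0.0954 and 0.00 with a standard error of 0.12 (edgeR, adjusted p = 0.783 and 0.995).

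Gli1, the activator that is itself induced by the signal (chr10:127329882-127341974, minus strand), had 52.5, 103 and 137 normalized counts in Ctrl. The βCat-GOF mice had 216, 148, 109, 147, 145 and 104 in replicate order. All 6 exceeded the Ctrl median and 4 exceeded every Ctrl mouse, but the groups overlapped. The log2 fold change was 0.53 with a standard error of 0.23 (unadjusted p = 0.0359, edgeR adjusted p = 0.21), and DESeq2 did not call it either (adjusted p = 0.135). Exons of Gli1 overlap those of Gm47200 and Arhgap9 on the opposite strand over 6.55% of their length, and the strand setting was not given. Arhgap9 had 50.8 to 80.9 normalized counts in Ctrl and 35.6 to 63.3 in βCat-GOF (log2 fold change -0.24, edgeR adjusted p = 0.499).

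Gli3, which acts mainly as a repressor when ligand is absent (chr13:15463235-15730026, plus strand), had 116, 157 and 237 normalized counts in Ctrl and 195, 249 and 357 in βCat-GOF. All 6 βCat-GOF mice lay above the Ctrl median and 3 above every Ctrl mouse. The log2 fold change was 0.65 with a standard error of 0.203 (edgeR, adjusted p = 0.0989), and DESeq2 gave an adjusted p of 0.026. Over the alternatives that adjusted p ran from 0.026 to 0.253. Gli2, the main activator in many tissues (chr1:118834132-119053619, minus strand), had only 20.8 to 29.6 normalized counts in Ctrl and 21.4 to 38.6 in βCat-GOF (log2 fold change 0.24, edgeR adjusted p = 0.547).

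Divided by exon length, the genes can be ranked against each other. In Ctrl the mean normalized counts per kb were 487 for Boc, 275 for Smo, 216 for Shh, 59.3 for Ptch1, 57.0 for Sufu, 27.6 for Hhip, 20.02 for Gli1, 17.0 for Gli3 and 3.68 for Gli2. Ranges of neighbours overlapped for Smo and Shh, Ptch1 and Sufu, Hhip and Gli1, and Gli1 and Gli3. In βCat-GOF Shh stood second with 421 per kb, between Boc with 635 and Smo with 287, and its range overlapped both. Gli1 with 29.0 and Gli3 with 26.7 per kb then stood above Hhip with 21.2, again with overlapping ranges.

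**Figure D2:**
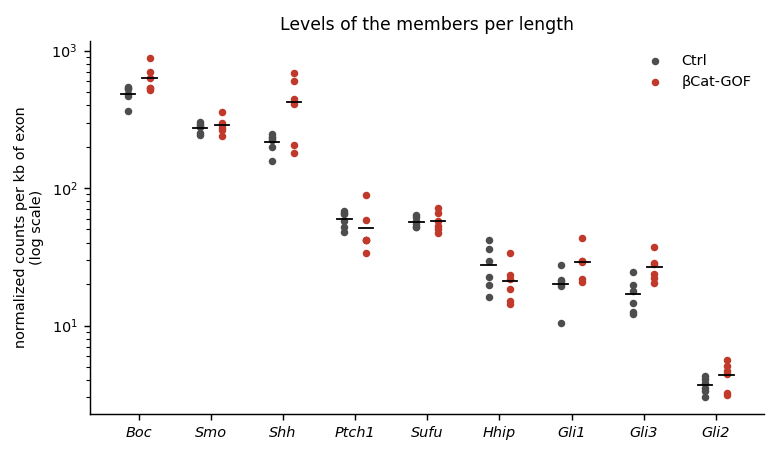
Normalized counts per kb of exon (log axis) of the 9 genes, ordered by their Ctrl mean; each point is 1 mouse and the black line is the mean of 6. Shh moves from a mean of 216 to 421 per kb, and Gli2 is the lowest gene in both groups.

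Setting the responding genes against the ligand within each mouse removes the size factor of the library. For each 100 normalized counts of Shh, Ctrl mice had 115, 143 and 162 of Ptch1 as lowest, median and highest. The βCat-GOF mice had 41.1, 56.6 and 116. The ratio lay below every Ctrl mouse in 5 of 6 βCat-GOF mice and below the Ctrl median in all 6. On the log2 scale it differed by -1.09 (exact permutation test over all assignments of the 12 mice, two-sided, p = 0.00649, 0.0162 adjusted over the 3 ratios).

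For Hhip the values per 100 counts of Shh were 22.8, 46.5 and 57.1 in Ctrl and 12.5, 16.4 and 25.5 in βCat-GOF. Here 4 of 6 βCat-GOF mice lay below every Ctrl mouse and all 6 below the Ctrl median. The log2 difference was -1.17 (exact permutation test, two-sided, p = 0.0108, 0.0162 adjusted over the 3 ratios).

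For Gli1 the values per 100 counts of Shh were 11.7, 15.5 and 20.7 in Ctrl and 8.69, 11.3 and 28.6 in βCat-GOF. As for Hhip, 4 of 6 βCat-GOF mice lay below every Ctrl mouse. Mouse 4, whose Shh was the lowest of its group, lay above every Ctrl mouse with the value of 28.6. The log2 difference was -0.27 (exact permutation test, two-sided, p = 0.374), and it became -0.49 (p = 0.0498 by the same exact test) without that mouse. Leaving out each of the 12 mice in turn gave p from 0.0498 to 0.621 (same exact test). A gene whose counts stay level has its ratio moved down by as much as Shh goes up, so these differences include that of Shh itself. On the same scale of mean log2 CPM, βCat-GOF minus Ctrl, Shh differed by 0.80, Gli1 by 0.53, Ptch1 by -0.29 and Hhip by -0.37. The smallest p this design allows is 0.00216.

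**Figure D3:**
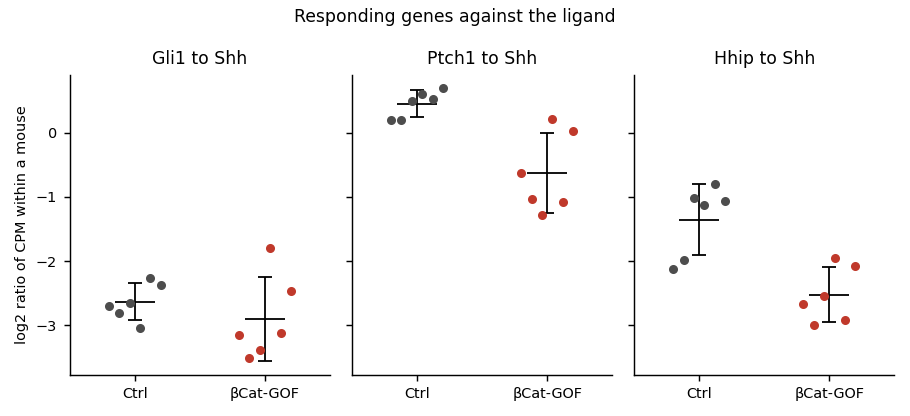
Log2 ratio of CPM (counts scaled to the library total) of Gli1, Ptch1 and Hhip to that of Shh in each of 6 Ctrl and 6 βCat-GOF mice, with the mean and SD of each group. The βCat-GOF means lie lower for Ptch1 (difference -1.09) and Hhip (-1.17); for Gli1, 4 of 6 points lie below every Ctrl point and mouse 4 lies above all of them.

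Among mice of 1 genotype, 10 relations between Shh, Gli1, Ptch1 and Hhip were computed on log2 CPM (n = 6 each, exact permutation test). All 10 correlations were positive, but they share genes and mice and are not independent. Within βCat-GOF, Shh and Hhip had r = 0.906 (exact permutation p = 0.00972, 0.0486 after Benjamini-Hochberg adjustment) and rho = 0.943 (p = 0.0167, adjusted 0.0556, exact). Without the 2 mice farthest from the median of Shh, r was 0.847. Within Ctrl the same pair had r = 0.136, and the difference between groups was not tested.

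Gli1 and Ptch1, both targets, had r = 0.835 in Ctrl (exact permutation p = 0.00278, adjusted 0.0278) with rho = 0.943 (exact p = 0.0167, adjusted 0.0556), and r = 0.952 without the 2 farthest mice. In βCat-GOF their r was 0.884 (exact permutation p = 0.0264, adjusted 0.088) and rho 0.943 (exact p = 0.0167, adjusted 0.0556). None of the rank correlations passed the adjustment. Shh and Gli1 had r = 0.822 in Ctrl, which rests on 2 mice, since it was 0.0221 without them. In βCat-GOF, Shh had r = 0.588 with Gli1 and 0.634 with Ptch1 (adjusted exact permutation p = 0.293 and 0.273). Without the 2 mice farthest from the median of Shh these were 0.898 and 0.982, on 4 mice. Gli1 and Hhip had r = 0.484 in Ctrl and 0.699 in βCat-GOF (adjusted exact permutation p = 0.375 and 0.247). Without the 2 mice farthest from the median of Gli1 these were 0.89 and -0.344.

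**Figure D4:**
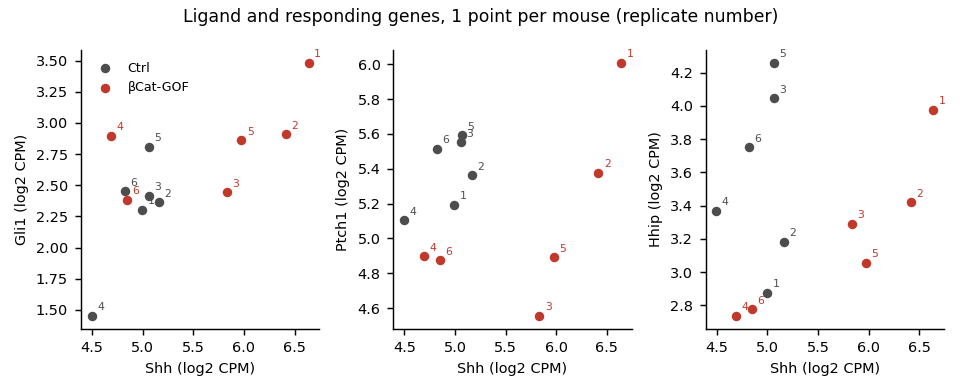
Log2 CPM of Gli1, Ptch1 and Hhip against log2 CPM of Shh; each point is 1 mouse with its replicate number, grey for Ctrl and red for βCat-GOF. In the Hhip panel the βCat-GOF points rise with Shh (r = 0.906), from mice 4 and 6 at the lower left to mouse 1 at the upper right.

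After the group mean was taken out, the 5 genes most like Shh over 12 mice were Mansc1 (r = 0.952), Gm16340 (0.941), Hunk (0.941), Snora28 (0.937) and Cep135 (0.934). Of these, Hunk, a protein kinase gene, was called higher in βCat-GOF (log2 fold change 1.87, edgeR adjusted p = 0.000607). The 5 most like Gli1 were Foxd2os (r = 0.937), Disc1 (0.899), Nicn1 (0.895), Stard8 (0.888) and Glis2 (0.882), of which Stard8 was called higher (log2 fold change 0.65, edgeR adjusted p = 0.0481). Ptch1 ranked 77 of 14952 by likeness to Gli1 and 1573 by likeness to Shh. By likeness to Shh, Hhip ranked 1808 and Gli1 ranked 2288. Shh spread more between mice in βCat-GOF (coefficient of variation 48.2%) than in Ctrl (15.5%). Likeness to Shh therefore rests mainly on βCat-GOF mice. The genes listed by r are the top of 14952 compared, and no p was computed for r.

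Of 40 further genes of the pathway, 35 passed the filter, and 1 was called, Scube1, which fell. Over all genes tested, 1.48% were called higher and 0.869% lower. At an unadjusted p under 0.05 edgeR marked 5 of the 35, against 20.4% of all genes. The median log2 fold change of the 35 was 0.02. Receptors and co-receptors beside the 9 had 0 of 6 tested genes called, also by DESeq2 and at an unadjusted p under 0.05 by edgeR. Of 19 genes of the cilium and cytoplasm, 0 were called by edgeR or DESeq2 and 1, Kif3a, a motor of ciliary transport, had an unadjusted p under 0.05 (log2 fold change 0.34, adjusted p = 0.109). Of 5 tested genes known as targets in other tissues, edgeR called 0 and marked 2 at an unadjusted p under 0.05. These were the cyclin genes Ccnd1 (log2 fold change 0.67, edgeR adjusted p = 0.0746) and Ccnd2 (0.45, adjusted p = 0.225). DESeq2 called Ccnd1 higher, against 2.17% of its genes. Of 5 tested ligand and release genes, Disp1, which exports ligand, had a log2 fold change of 0.36 (adjusted p = 0.206).

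**Figure D5:**
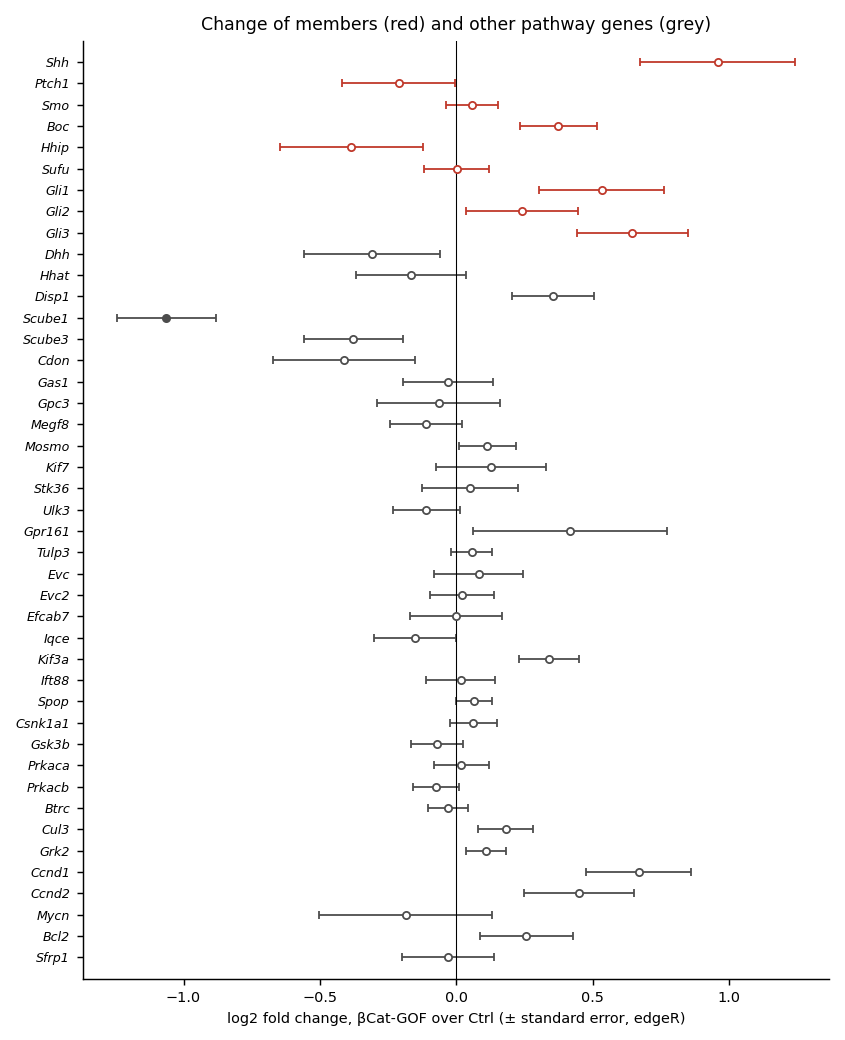
Log2 fold change of βCat-GOF over Ctrl with its standard error (edgeR) for the 9 genes in red and the other pathway genes reported here in grey; a filled point is a called gene. Scube1 at -1.06 is the only filled point, and Shh at 0.96 has the largest value above 0.

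Markers of the cells that make and receive the signal were set beside these values. Of 11 zG markers 4 were called higher, Agtr1b (log2 fold change 1.55), Vsnl1 (1.00), Agtr1a (0.89) and Dab2 (0.75), against 1.48% of all genes. DESeq2 called 7 of the 11 higher, against 2.17% of its genes. By edgeR 7 had an unadjusted p under 0.05, against 20.4% of all genes. The median log2 fold change was 0.79. Their mean log2 CPM ran from 6.53 to 7.07 in Ctrl and from 6.57 to 7.70 in βCat-GOF. Cyp11b2, the defining marker, had a log2 fold change of -0.18 (edgeR, adjusted p = 0.82). The list includes Lef1, which the paper calls an established β-catenin target, so the list values cannot tell cell number from target expression. The part of the zG markers in the Shh values was not tested. In βCat-GOF mice 1 to 6 the zG mean was 7.70, 7.68, 6.57, 7.06, 7.52 and 7.15. Mice 1, 2 and 5, the highest in zG mean, also had the most Shh, while mouse 3, the lowest in zG mean, had more Shh than mice 4 and 6.

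Of 12 markers of capsule and stroma, 0 were called by edgeR or DESeq2. By edgeR 1 had an unadjusted p under 0.05, against 20.4% of all genes. Their mean log2 CPM ran from 4.66 to 5.17 in Ctrl and from 4.28 to 5.32 in βCat-GOF, with a median log2 fold change of -0.13. In βCat-GOF mice 1 to 6 the mean was 5.24, 4.72, 4.28, 4.59, 5.32 and 4.38. Mouse 3, the lowest, had the fewest counts of Ptch1, while mouse 5, the highest, had 599, below every Ctrl mouse. Their part in the values of Gli1, Ptch1 and Hhip was not tested.

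Among the other cell types, Akr1b7 of the zona fasciculata was called higher (log2 fold change 1.48, 1 of 5 markers) and Adgre1 of macrophages lower (-0.78, 1 of 4). The shares over all genes were 1.48% higher and 0.869% lower. At an unadjusted p under 0.05, edgeR marked 2 of 5 zona fasciculata markers, both higher, and 3 of 4 macrophage markers, all lower. Of all genes, it marked 20.4%. No marker of the X-zone (2 tested), medulla (6), Schwann cells (4), endothelium (5) or fat (4) was called by edgeR or DESeq2, and 0, 0, 1, 1 and 1 of them had an unadjusted p under 0.05. The fat mean ran from 2.33 to 4.75 log2 CPM in Ctrl and from 3.40 to 5.17 in βCat-GOF.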

How the data were processed

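Libraries were made from whole adrenals of 6 Ctrl and 6 βCat-GOF mice with an mRNA kit. The authors trimmed reads with cutadapt, aligned them with STAR (genome mm10), summed the reads that mapped uniquely over each gene with featureCounts 1.4.4, and deposited raw counts for 39017 genes. They also deposited normalized values (signal: counts divided by 1 size factor per library, from DESeq2 1.6.3 as named in the processing notes). The deposited factors were 0.954 to 0.976 of those computed here.

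Genotypes were compared with edgeR 4.0.16 (quasi-likelihood test, TMM, filterByExpr, Benjamini-Hochberg adjustment over 14953 genes, two-sided) and, as an alternative, DESeq2 1.42.0. Normalized counts used DESeq2 size factors. Log2 CPM used a prior count of 2 and TMM-scaled library sizes of the genes that passed the filter. Ratios and correlations used exact permutation tests in scipy 1.17.1. Scripts were tested on simulated data. At these depths 3 counts equal 0.117 to 0.222 CPM on the unscaled library total, which covers counting error only. Exon lengths, positions and overlaps come from GENCODE on the mm10 sequence, promoters from RefSeq GRCm38.p6. Of the genes, 966 have no symbol.

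In 3 pairs of mice 1 label extends the other. Their chi-square per degree of freedom was 41.9 to 45.8, inside the range of the other 27 pairs within groups (16.8 to 145). βCat-GOF mouse 1 had a lower value with its label partner, mouse 2 (41.9), than with mice 3 to 6 (85.1 to 145). Each paired Ctrl mouse had a lower value with Ctrl mouse 6 (24.2 to 30.1) than with its partner. The measure depends on depth, and Ctrl mouse 6 had the fewest counts of its group (14090378), so pairs are not strictly comparable. These values alone cannot tell separate mice from samples of 1 mouse. The paper gives 6 female mice per genotype, and all 12 were kept as separate mice. The 9 genes, the pathway and marker lists and the tests were chosen with earlier results of these data known. All 9 are named. Other pathway genes are named if they are Dhh or Ihh, have an adjusted p under 0.05, or, among up to 6 more by p, have an unadjusted p under 0.05. A gene that this rule would name is not reported here. The 5 genes most like Shh and Gli1 are named by r, and markers only if called or defining, besides Lef1. Alternatives were DESeq2, its size factors in edgeR, no filter, a filter of 10 counts in every mouse, adjusted p alone, prior counts of 0.5 and 5, and leaving out mice.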

Additional observations from a re-analysis of the deposited data

How the results depend on the processing

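Under DESeq2 the counts of all genes called rose to 362 higher and 282 lower, and 2 Hedgehog genes were called higher, Shh and Gli3. The count called lower was 228 with adjusted p alone or without the 3 mice whose label extends another, and 80 without the single mouse whose label starts differently (βCat-GOF mouse 5). Leaving out 1 mouse at a time gave 146 genes higher (without Ctrl mouse 6) to 340 (without βCat-GOF mouse 1), 61 to 223 lower, and 0 to 1 Hedgehog genes called higher. That gene was Shh, without βCat-GOF mouse 4 or 6. The log2 ratio of Gli1 to Shh ran from -0.49 to -0.15 and its p from 0.0498 to 0.621 (exact permutation tests). The lowest p came without βCat-GOF mouse 4. The Ptch1 ratio kept p between 0.00216 and 0.0152 and the Hhip ratio between 0.00433 and 0.0195 (exact permutation tests) with 1 mouse left out. Without the 3 mice whose label extends another, p was 0.0397 for the Ptch1 ratio and 0.0159 for the Hhip ratio (exact permutation tests). None of these p-values is adjusted over the 3 ratios. Of 162 alternative values for the 9 genes, 4 were calls (Shh in 3 and Gli3 in 1). The causes were not tested. No paired analysis was possible because the labels give no replicate number shared between genotypes. Gli2 was tested but lies below the count that a call requires, and Ihh was too low to be tested.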
